A study of Homo sapiens with 4 samples.

Results

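OVCA420, an epithelial ovarian cancer cell line, was examined after 7 days of TGF-β1. Cells with a high level of a cell cycle gene were compared with cells of the same library with a low level. Cells were sorted by *TOP2A*, the gene for DNA topoisomerase II alpha, which untangles chromosomes and is transcribed from S phase to mitosis. A cell with 5 or more *TOP2A* UMIs (unique molecular identifiers, the counted RNA molecules) per 10000 of its UMIs was called cycling, and a cell under 1 was called not cycling. Of the 569 retained 7-day cells, 174 were cycling, 234 were not cycling and 161 lay between the limits. The 4 libraries of the series were analysed in part, with 3144 cells retained in all. These were 933 untreated cells (Ctrl) and 937, 705 and 569 cells treated with 10 ng/mL TGF-β1 for 1, 3 and 7 days (1-day, 3-day and 7-day). All are the same line, with 1 library per time point, and no test between conditions is possible. The question was whether cells cycling by the *TOP2A* limits carry the mesenchymal and late-response genes to the same level as those not cycling.

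TGF-β1 is a cytokine that holds many epithelial cells in G1 by inducing inhibitors of cyclin-dependent kinases (CDKs) and repressing growth genes. In carcinoma cells it also drives the epithelial-mesenchymal transition (EMT), in which cells gain matrix, integrin, protease and EMT transcription factor genes. In a dividing cell, replication genes are transcribed from late G1 through S phase, under E2F factors. Genes of the spindle, kinetochore and mitotic kinases follow in G2 and mitosis.

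The retained 7-day cells held 25382817 UMIs, with 8692196 in cycling and 10080795 in not cycling cells. The median cell had 47168.5 UMIs when cycling, 37807 between the limits and 42576 when not cycling. The mitochondrial share was alike, with medians of 6.52%, 6.498% and 5.91%. The epithelial genes *EPCAM*, *KRT8*, *KRT18*, *KRT19* and *KRT7* lay between 276 and 1327 CPM (a gene's UMIs per 1000000 UMIs of the group) in both groups. *PAX8* and *MUC16*, which mark many ovarian carcinomas, were nearly absent, with 1 and 0 UMIs in cycling and 6 and 5 in not cycling cells. Of 12 markers of immune, endothelial, fibroblast and red cells, *CD68* alone exceeded 1 CPM in either group, at 6.33 and 6.45. Between 1 and 7 cell barcodes were shared by each pair of libraries.

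*TOP2A* set the groups, so its values describe the rule and are no result. In cycling 7-day cells it ranged from 5.05 to 32.0 per 10000 UMIs, with a median of 10.5, and in not cycling cells the median was 0.19 and 93 of 234 cells had none. The cells next to the upper limit had 4.98 (16 of 32123 UMIs) and 5.05 (14 of 27711), and those next to the lower limit 1.00 (4 of 40014) and 1.02 (3 of 29551). A few UMIs more or less would therefore move a cell across a limit. The cycling share was 30.6% at 7-day (exact binomial 95% interval 26.8 to 34.5%, counting error only), whereas it was 40.2% for Ctrl, 9.61% after 1 day and 24.5% after 3 days. The intervals ran from 37.0 to 43.4% for Ctrl and from 7.79 to 11.7% for 1-day. At 3-day the interval of 21.4 to 27.9% overlapped that of 7-day. They measure the counting of cells and not the spread between cultures, so no difference between time points was tested. These shares count only the analysed cells of 1 library each, so time and library cannot be told apart.

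**Figure D1:**
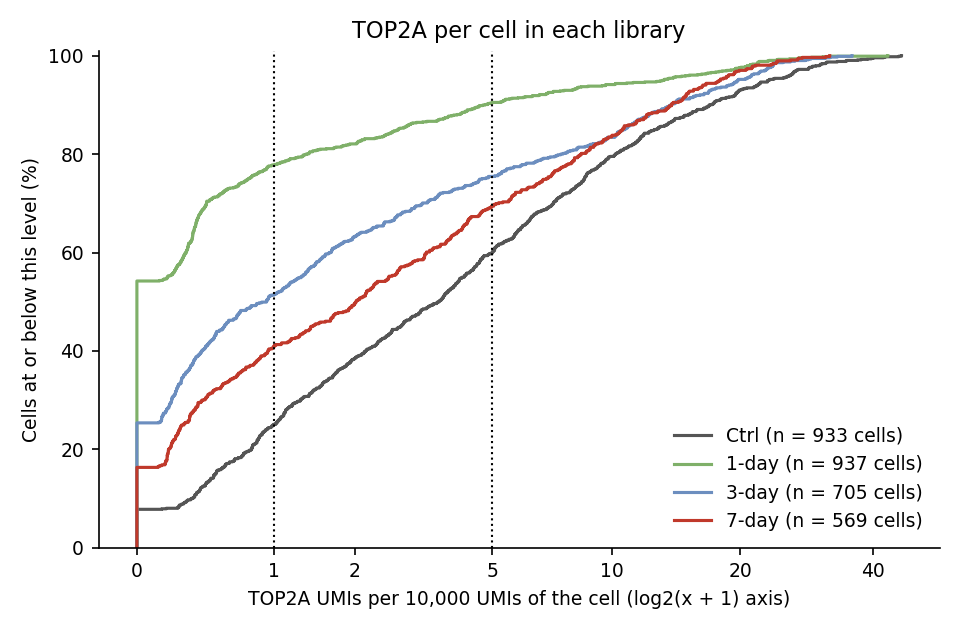
Cumulative share of cells (y axis, %) at or below each *TOP2A* level per 10000 UMIs (x axis, log2(x + 1) spacing) in the 4 libraries, with dotted lines at the limits of 1 and 5. The 1-day curve is highest, with 77.8% of its cells under the lower limit, and the 7-day curve lies between those of 3-day and Ctrl up to the upper limit.

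Levels below are CPM of UMIs summed over the cells of a group, and a log2 ratio is cycling over not cycling unless stated otherwise. Intervals are exact 95% intervals for counting error, with no replicate behind them. A gene was compared when its mean over both groups was at least 10 CPM, which 7905 genes reached, and was counted when it differed at least 2-fold. Of these genes, 456 (5.77%) were higher and 103 (1.30%) were lower in cycling cells, and the median log2 ratio over all of them was 0.09.

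Mitotic genes made up the highest ratios. Of 45 spindle, kinetochore and cytokinesis genes, 41 reached the level and all 41 were at least 2-fold higher in cycling cells, with a median log2 ratio of 3.42. Of 25 mitotic kinase and cyclin genes, 20 reached the level and all 20 were higher, with a median of 3.05. Chromosome structure genes were higher in 18 of 21, and genes of the anaphase-promoting complex and its checkpoint in 9 of 15. Over all genes compared 5.77% were higher. Since these genes are expressed in the same cell cycle phases as *TOP2A*, the counts describe how well the *TOP2A* limits separated the cells. Members such as *SPC25*, *CKAP2L* and *ASPM* were under 10 CPM in not cycling cells and reached the level through the cycling cells. The counts therefore hold for the genes that passed.

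*SPC25*, a subunit of the NDC80 kinetochore complex, had the highest ratio of all. It stood at 38.2 CPM in cycling, 17.7 in between and 0.496 in not cycling cells, a log2 ratio of 6.27 (5.03 to 7.90). *CENPF*, a kinetochore protein, had 221, 82.9 and 9.72 CPM. Per cell, *CENPF* ran from 0 through a median of 1.91 to 7.21 per 10000 UMIs in cycling cells, and from 0 through 0 to 2.31 in not cycling cells. The ranges overlapped, but the level of the cells between the limits was intermediate for both genes.

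*PIF1*, a DNA helicase outside the fixed cell cycle lists, was confined more closely to the high-*TOP2A* cells. It had 39.1 CPM in cycling cells, 2.57 between the limits and 0.595 in not cycling cells. *HJURP*, the chaperone of the centromeric histone CENPA, had 35.8, 11.3 and 2.08 CPM, a log2 ratio of 4.10. *CDK1*, the kinase that starts mitosis, had 95.1, 29.5 and 4.96 CPM, and *MKI67*, the proliferation antigen Ki-67, 139, 68.7 and 9.23. *PLK1* and *AURKA*, kinases of the centrosome and spindle, had log2 ratios of 4.08 and 3.99. *UBE2C*, the ubiquitin-conjugating enzyme of the anaphase-promoting complex, had 398 CPM in cycling and 24.6 in not cycling cells, while none of 5 subunits of the complex itself on the list reached 2-fold. Of these, *CDC16* (31.8 and 31.7 CPM) and *ANAPC7* (41.3 and 38.1 CPM) did not differ beyond counting error, and *CDC27*, *ANAPC11* and *CDC23* had log2 ratios of 0.39, 0.41 and 0.59.

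Many mitotic promoters carry a CHR element (TTTGAA or TTCGAA), a site of the DREAM and MuvB complexes, and CCAAT boxes, the site of NF-Y. Windows from 250 bases before to 50 bases after the transcription start were taken from RefSeq (GRCh38.p14), and both strands were searched. Of the 97 mitotic genes compared, 80 had a window by symbol. A CHR was found in 51 of these 80 (63.75%), a CCAAT box in 54 (67.5%) and both in 37 (46.25%). Over all 27305 RefSeq windows of that length the shares were 16.6%, 35.7% and 6.58%. The windows below are those of the 4 mitotic genes with the highest ratios that hold a CHR. They are printed in the direction of transcription, with each CHR and CCAAT box, or its reverse complement, in capitals. *SPC25* is chr2:168890381-168890680 (minus strand), *CENPF* chr1:214602945-214603244 (plus), *CKAP2L* chr2:112764560-112764859 (minus) and *ASPM* chr1:197146620-197146919 (minus).
SPC25: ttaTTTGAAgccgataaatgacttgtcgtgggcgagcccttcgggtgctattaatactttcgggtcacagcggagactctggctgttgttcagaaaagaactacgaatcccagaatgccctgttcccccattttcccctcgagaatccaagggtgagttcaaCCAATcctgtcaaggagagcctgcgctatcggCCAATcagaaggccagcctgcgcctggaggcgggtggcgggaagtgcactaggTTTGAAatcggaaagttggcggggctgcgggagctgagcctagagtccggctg
CENPF: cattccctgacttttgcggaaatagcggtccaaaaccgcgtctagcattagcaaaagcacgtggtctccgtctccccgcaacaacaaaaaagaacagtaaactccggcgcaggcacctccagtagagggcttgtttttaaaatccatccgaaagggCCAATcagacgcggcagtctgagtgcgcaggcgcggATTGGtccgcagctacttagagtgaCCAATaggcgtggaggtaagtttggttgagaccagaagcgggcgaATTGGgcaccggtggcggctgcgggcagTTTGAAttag
CKAP2L: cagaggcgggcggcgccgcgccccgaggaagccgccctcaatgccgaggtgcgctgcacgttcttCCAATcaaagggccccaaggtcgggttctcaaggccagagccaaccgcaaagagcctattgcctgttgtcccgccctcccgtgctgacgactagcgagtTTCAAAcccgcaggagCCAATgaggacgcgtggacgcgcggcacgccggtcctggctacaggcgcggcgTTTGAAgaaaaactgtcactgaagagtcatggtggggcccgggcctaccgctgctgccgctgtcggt
ASPM: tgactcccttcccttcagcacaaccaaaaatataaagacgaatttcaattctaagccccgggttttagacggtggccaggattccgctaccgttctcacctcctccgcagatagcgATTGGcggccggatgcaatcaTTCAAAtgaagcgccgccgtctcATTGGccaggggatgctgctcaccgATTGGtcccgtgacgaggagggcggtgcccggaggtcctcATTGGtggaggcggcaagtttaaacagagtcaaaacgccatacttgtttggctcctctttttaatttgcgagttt

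In *SPC25* and *CKAP2L* 1 of the 2 CHR matches lies close to the transcription start. *CKAP2L*, a spindle protein, had 42.2 CPM in cycling and 1.98 in not cycling cells, and *ASPM*, a spindle pole protein, 54.1 and 2.78. A match of 6 letters is a description of the window and does not show that a factor is bound in these cells.

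Replication genes separated the groups less sharply. Of 67 genes of origin licensing, the replication fork and nucleotide supply, 57 reached the level. Of these, 51 were at least 2-fold higher in cycling cells and none was lower, beside 5.77% and 1.30% over all genes compared. The median log2 ratio was 1.53. *RRM2*, the small subunit of ribonucleotide reductase, led them with 318 CPM in cycling, 177 between the limits and 30.9 in not cycling cells. *PCNA*, the sliding clamp of the replication fork, was highest between the limits, at 234 CPM against 169 in cycling and 75.9 in not cycling cells. *SLBP*, which binds histone mRNA, had the same order, at 147, 98.6 and 60.5 CPM. So did *CCNE1*, the cyclin of the G1/S transition, at 53.9, 39.8 and 27.0 CPM.

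E2F sites (TTTCCCGC, TTTGGCGC or TTTCGCGC, both strands) were sought in the same windows, and 2.79% of all 27305 windows hold one. Only 45 of the 57 replication genes had a window by symbol, too few for a share over the list. Shown are 2 of the genes with the highest ratios among those with a site, with E2F and CCAAT matches in capitals. *CLSPN*, a checkpoint adaptor at the fork, is chr1:35769929-35770228 (minus strand), and *GINS1*, a subunit of the replicative helicase, is chr20:25407423-25407722 (plus). Their log2 ratios were 2.40 and 2.37.
CLSPN: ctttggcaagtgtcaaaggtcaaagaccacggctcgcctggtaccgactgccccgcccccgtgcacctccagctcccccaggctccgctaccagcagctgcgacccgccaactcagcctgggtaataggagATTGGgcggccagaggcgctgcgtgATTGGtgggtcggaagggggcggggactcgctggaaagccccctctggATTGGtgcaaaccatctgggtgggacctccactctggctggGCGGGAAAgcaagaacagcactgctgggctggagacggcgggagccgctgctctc
GINS1: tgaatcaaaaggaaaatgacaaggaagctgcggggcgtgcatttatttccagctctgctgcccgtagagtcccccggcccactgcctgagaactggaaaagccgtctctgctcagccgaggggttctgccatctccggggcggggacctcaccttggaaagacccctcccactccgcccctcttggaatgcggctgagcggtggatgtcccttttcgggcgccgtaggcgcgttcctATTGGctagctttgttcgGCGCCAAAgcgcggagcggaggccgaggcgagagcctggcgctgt

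Each cell's mitosis genes (without *TOP2A*) and replication genes were summed per 10000 UMIs. The mitosis sum had a median of 110.2 in cycling, 81.9 in between and 20.97 in not cycling cells. It reached the 10th percentile of cycling cells (82.8) in 7 of 234 not cycling cells. The replication sum had medians of 38.5, 40.2 and 6.90, and 47 of 234 not cycling cells (20.1%) reached the 10th percentile of cycling cells (24.2). The name "not cycling" thus goes against the replication genes of these cells, and "low *TOP2A*" is what the rule measures. The cells between the limits had a replication sum as high as that of cycling cells.

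**Figure D2:**
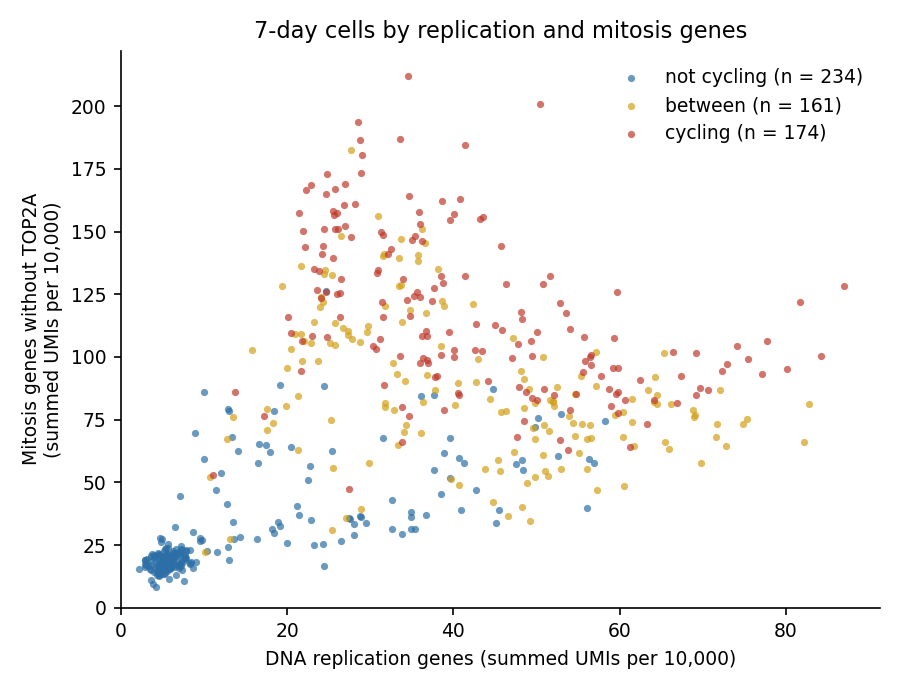
Each point is a 7-day cell, placed by its summed replication genes (x axis) and its summed mitosis genes without *TOP2A* (y axis), both in UMIs per 10000, and coloured by *TOP2A* group. Most not cycling cells form a tight group near medians of 6.90 and 20.97, and a minority extends to the right into the replication range of the other groups.

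Histone genes had members past 2-fold on both sides. *HIST1H4C*, an S phase histone H4 gene, had 1965 CPM in cycling and 190 in not cycling cells, with polyadenylated RNA being what the kit captures. *H2AFX* and *H2AFZ*, variant histones, had log2 ratios of 2.39 and 1.53. In contrast, *HIST1H2BD* stood at 2.07 CPM in cycling, 6.35 in between and 19.9 in not cycling cells, and *HIST1H2AC* at 7.59, 13.6 and 30.8. Some of these histone genes are near-identical copies, and reads can be shared among them. In all, 5 of 12 histone genes (41.7%) were higher and *HIST1H2BD* and *HIST1H2AC* (16.7%) were lower, beside 5.77% and 1.30% over all genes compared. Both lower genes were under 10 CPM in cycling cells and reached the level through the not cycling cells, so the 16.7% describes the genes that passed. All 7 tubulin genes had ratios above 0, with 1 (14.3%) past 2-fold.

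Genes of CDK inhibition and G1 did not move as one. The list also holds *CCND1*, *CCND3*, *CDK4*, *CDK6* and *MYC*, so it is not one of inhibitors alone. Of 25 CDK inhibitor, G1 and antiproliferative genes, 5 were at least 2-fold higher and 2 lower in cycling cells, with a median log2 ratio of 0.14. Both shares were above those over all genes compared, of which 5.77% were higher and 1.30% lower. Higher genes such as *CDKN2C* and *CDKN1B* were under 10 CPM in not cycling cells and reached the level through the cycling cells. The share of higher genes thus describes the genes that passed. *CDKN2B*, the p15 inhibitor of CDK4 and CDK6 and a known TGF-β target, had 11.5 CPM in cycling, 14.8 in between and 47.5 in not cycling cells. Per cell its median was 0 in both of the first groups and 0.32 per 10000 UMIs in not cycling cells, and the ranges overlapped, up to 0.91 and 3.72. The log2 ratio was -2.05 (-2.37 to -1.73) and remained between -2.27 and -1.77 under every alternative. In Ctrl, *CDKN2B* had 7.34 CPM in cycling and 16.1 in not cycling cells, so the 7-day level exceeded that of Ctrl by a log2 of 0.65 within cycling and 1.56 within not cycling cells.

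*MXD4*, a MYC antagonist, was the other lower gene, at 12.7 against 34.6 CPM. *CDKN1A*, the p21 inhibitor, had 141 against 219 CPM, a log2 ratio of -0.63 (-0.74 to -0.53). It was above Ctrl in both groups, which had 36.5 and 68.3 CPM. *CCND1*, cyclin D1, had 474 against 743 CPM at 7-day and nearly equal levels of 215 and 217 CPM in Ctrl. *MYC* had 59.0 against 81.0 CPM. None of these last 3 reached 2-fold.

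The 5 higher genes were *CDKN2C*, *CDKN3*, *CDKN1B*, *RBL1* and *CDKN2D*. *CDKN2C*, the p18 inhibitor of CDK4 and CDK6, had 60.5 CPM in cycling, 29.7 in between and 4.86 in not cycling cells, a log2 ratio of 3.64. The p19 gene *CDKN2D* had 48.9 against 17.8 CPM, and the p27 gene *CDKN1B* 20.02 against 6.55. *CDKN3* encodes a phosphatase that acts on CDKs and *RBL1* the pocket protein p107. All 5 were also higher in cycling cells of Ctrl, at log2 ratios from 0.62 for *RBL1* to 2.26 for *CDKN2C*. Of the 4 INK4 inhibitors, *CDKN2B* was thus lower and *CDKN2C* and *CDKN2D* were higher in cycling cells, while *CDKN2A* had 577 and 455 CPM.

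The core TGF-β response was present in both groups. Of 35 response genes 26 reached the level, and the median log2 ratio of cycling to not cycling cells was -0.15, with 2 genes (7.69%, against 5.77% over all genes compared) at least 2-fold higher and none lower. *PMEPA1*, a feedback inhibitor of the pathway, had 953 CPM in cycling, 766 in between and 1098 in not cycling cells, against 63.7 and 84.1 in cycling and not cycling Ctrl cells. Per cell it ran from 1.91 through 9.21 to 23.1 per 10000 UMIs in cycling cells and from 0.52 through 10.8 to 26.0 in not cycling cells, almost the same range. *CTGF*, a matricellular target gene, had 270 and 346 CPM. *TGFBR2*, the type II receptor, had the lowest ratio of the list, at 98.5 against 178 CPM (log2 -0.85). *TGFBR1*, the type I receptor, had 50.3 against 68.1 CPM. *SMAD2*, *SMAD3* and *SMAD4*, the signal transducers, had log2 ratios of 0.11, 0.19 and 0.25.

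The 2 response genes past 2-fold were inhibitors of differentiation. *ID1* had 99.6 CPM in cycling, 94.6 in between and 36.5 in not cycling cells, a log2 ratio of 1.45 (1.27 to 1.63). Its median per cell was 0.84, 0.68 and 0.25 per 10000 UMIs, with maxima of 4.25, 15.4 and 4.50. In Ctrl its levels were 279 and 259 CPM, nearly equal, so that 7-day lay below Ctrl by a log2 of -1.49 within cycling and -2.83 within not cycling cells. *ID2* had 52.0 against 26.0 CPM at 7-day and 159 against 114 in Ctrl. Its 7-day ratio stood at the 2-fold limit and fell short of it under some alternatives, to 0.39 when cells were grouped by *MKI67*. *ID3* did not differ beyond counting error, at 32.4 and 30.3 CPM.

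Mesenchymal genes were mostly lower in cycling cells. Of 53 genes only 27 reached the level, and of these 8 were at least 2-fold lower and 1 was higher. Their share of lower genes was 29.6%, against 1.30% over all genes compared, and their median log2 ratio was -0.62 against 0.09. The ratio was below 0 for 24 of the 27, but also for 26 of 35 epithelial and 15 of 17 basement membrane genes. The other 26 mesenchymal genes, among them *VIM*, *CDH2*, *ZEB1*, *ZEB2*, *SNAI1* and *TWIST1*, did not reach 10 CPM, so these counts hold for expressed members only. The 8 lower genes include *ITGB6*, an epithelial integrin subunit, so they are not mesenchymal markers alone. Genes low in 1 group, such as *MMP1* (1.38 CPM in cycling cells) and *MMP10* (2.99 CPM), reached the level through the other group. Lower mesenchymal genes numbered 4 of 24 when cells were grouped by *MKI67*, and 11 of 26 with limits of 3 and 0. Summed per cell, the list had a median of 45.9 per 10000 UMIs in cycling (20.2 to 94.7), 42.6 in between and 67.7 in not cycling cells (21.2 to 150.3), with wide overlap.

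*SOX4*, an EMT transcription factor, had 397 CPM in cycling, 390 in between and 826 in not cycling cells. Per cell it ran from 0 through a median of 3.48 to 12.3 per 10000 UMIs in cycling cells and from 0 through 7.26 to 39.8 in not cycling cells, and 155 of 174 cycling cells lay below the not cycling median. The log2 ratio of -1.06 (-1.11 to -0.999) stood at the 2-fold limit. It went to -0.77 when cells were grouped by *MKI67* instead, and to -1.19 with limits of 3 and 0. In Ctrl the gene had 87.5 and 136 CPM, at 1-day 329 and 561, and at 3-day 387 and 734. *SOX4* was thus lower in cycling cells in all 4 libraries, with log2 ratios of -0.64, -0.77, -0.92 and -1.06 in that order.

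*ITGB6*, an epithelial integrin subunit whose dimer with *ITGAV* activates latent TGF-β, had 150 CPM in cycling, 132 in between and 355 in not cycling cells. Its cells ran from 0 through 1.12 to 13.1 per 10000 UMIs when cycling and from 0 through 2.89 to 19.6 when not. *ITGAV* itself had 182 against 346 CPM, just short of 2-fold. *ITGA5*, which pairs with *ITGB1* as the fibronectin receptor, had 24.0 against 52.3 CPM, while *ITGB1*, shared by many integrins, had 1045 against 1239. The ligand gene *FN1*, fibronectin, had 177 CPM in cycling, 164 in between and 324 in not cycling cells, a log2 ratio of -0.87 (-0.96 to -0.78). It passed 2-fold, at -1.18, with limits of 3 and 0, which changed both groups. *TNC*, the matrix glycoprotein tenascin C, had 51.2 against 110 CPM.

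The proteases *MMP1*, *MMP10* and *MMP9* had the lowest ratios of the list. *PLAU*, urokinase, had 97.3 CPM in cycling and 227 in not cycling cells. *MMP9*, a gelatinase, had 40.6 CPM in cycling, 40.7 in between and 143 in not cycling cells, and 10 cells held 36.2% of its not cycling UMIs. *MMP10* and *MMP1*, a stromelysin and a collagenase, had log2 ratios of -2.92 and -4.002, but 10 cells held 78.2% and 98.2% of their not cycling UMIs. With only those not cycling cells at least as deep as the median cycling cell, the *MMP1* ratio turned to 1.26. *MMP2*, the other gelatinase, had 80.0 against 123 CPM, a ratio at the median of the list, and no UMI in either Ctrl group.

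*SNAI2*, the EMT factor Slug, was lower in cycling cells without reaching 2-fold, at 30.7 CPM in cycling, 31.0 in between and 51.6 in not cycling cells, a log2 ratio of -0.75 (-0.97 to -0.53). Only 3 mesenchymal genes had ratios above 0. *COL1A1*, a fibrillar collagen, had 16.6 against 15.2 CPM, with an interval of the ratio from -0.21 to 0.46 and a sign that turned under some alternatives. *LGALS1*, galectin-1, had 166 against 152 CPM. *AXL*, a receptor tyrosine kinase, was the opposite of the list, at 44.9 CPM in cycling, 41.8 in between and 11.4 in not cycling cells. Its log2 ratio was 1.98 (1.67 to 2.29), and between 1.69 and 2.70 under the alternatives. The median cell had 0.22 per 10000 UMIs when cycling and 0 when not, and the maxima were 4.98 and 2.10. In Ctrl *AXL* was near 1 CPM, at 1.08 and 1.29. *LGALS3*, galectin-3, had 74.9 against 91.4 CPM, and its binding protein *LGALS3BP* 51.3 against 72.1, neither near 2-fold.

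**Figure D3:**
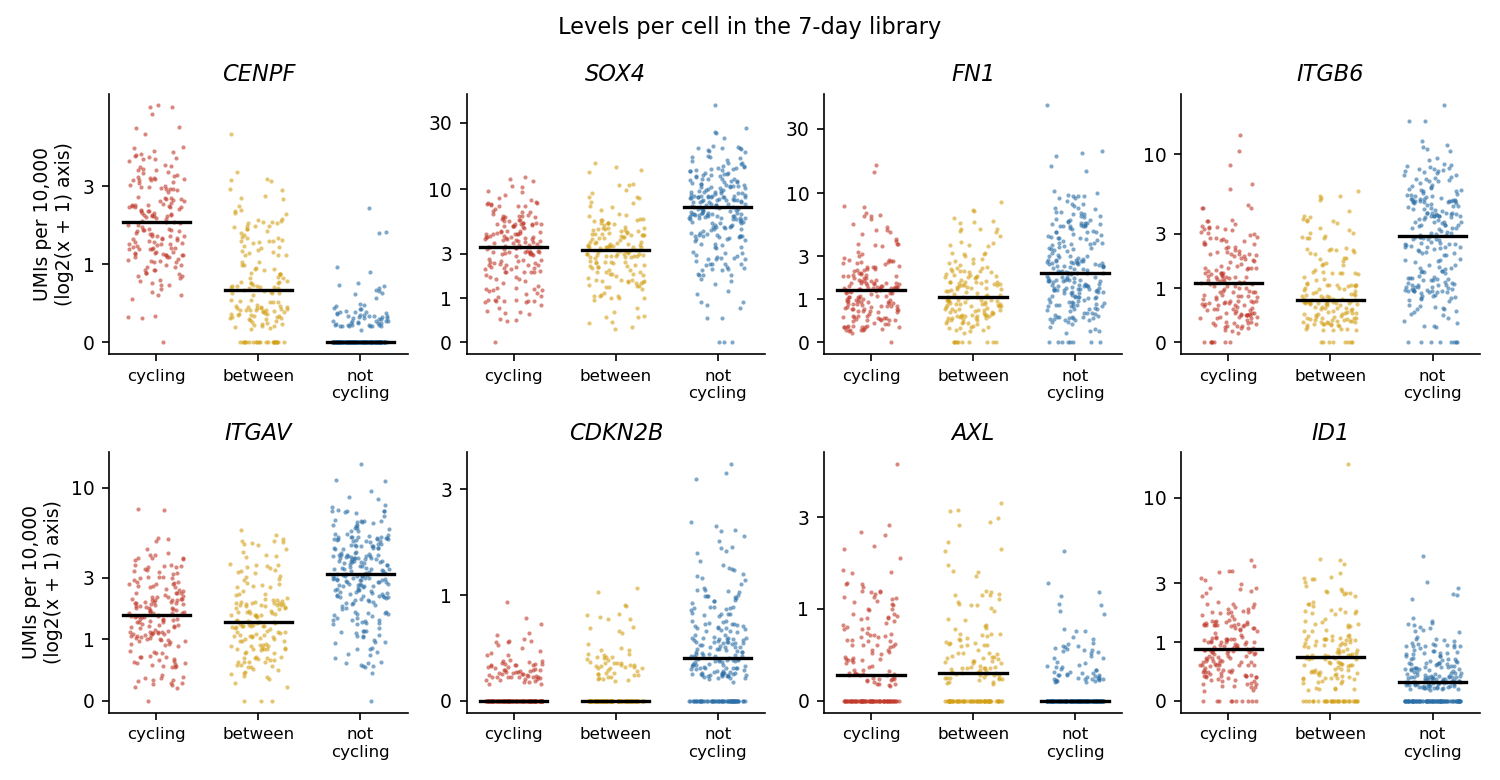
UMIs per 10000 in each 7-day cell (points, log2(x + 1) axis) for 8 genes, with the 174 cycling, 161 between and 234 not cycling cells side by side and a bar at the median. For *SOX4*, *FN1*, *ITGB6*, *ITGAV*, *AXL* and *ID1* the cells between the limits sit near the cycling cells, whereas *CENPF* is graded over the 3 groups.

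The cells between the limits stood with the cycling cells for these genes. All 8 mesenchymal genes that were lower in cycling cells were at least 2-fold lower between the limits too, relative to not cycling cells, with median log2 ratios of -1.35 between and -1.23 in cycling cells. Of the 103 genes of any kind that were lower in cycling cells, 70 were at least 2-fold lower between the limits. Both comparisons share the not cycling cells, so they are not independent. Of the 145 cell cycle genes that were higher in cycling cells, 139 were at least 2-fold higher between the limits.

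**Figure D4:**
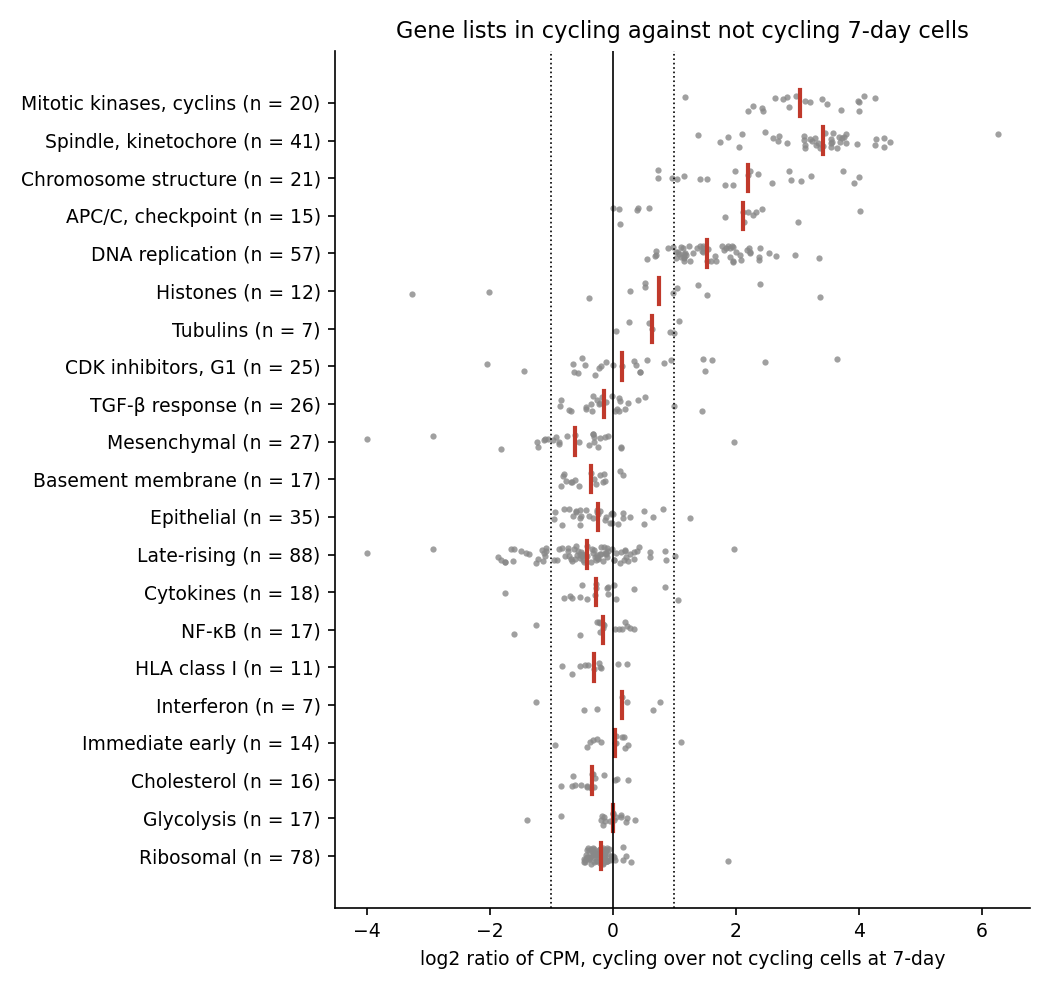
Log2 ratio of CPM in cycling over not cycling 7-day cells (x axis) for each compared gene (grey points) of 21 lists, with the list median as a red bar and dotted lines at 2-fold. The mitotic kinase and spindle lists lie right of 2-fold, and the replication list has a median of 1.53. The mesenchymal and late-rising lists have medians of -0.62 and -0.42, with *AXL* as the far point on the right of both.

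Late-rising genes were defined as at least 2-fold higher at 7-day than in Ctrl and than at 3-day over all cells, and 88 genes met this. The list was chosen on these libraries, and the choice gives no evidence of its own. Of the 88, 20 (22.7%) were at least 2-fold lower in cycling than in not cycling cells, 2 were higher, and the median log2 ratio was -0.42, beside 1.30% lower and 5.77% higher over all genes compared. The lists share members, so their counts are not separate results. Among the 20 are *MMP1*, *MMP10*, *MMP9*, *PLAU* and *ITGA5*, already counted as lower mesenchymal genes. *PODXL*, *CCL5*, *G0S2*, *ICAM1* and *SOD2* are also among them and recur in lists below. *AXL* is a higher gene of both the mesenchymal and the late-rising list. Of the 20, 5 were under 10 CPM in cycling cells and reached the level through the not cycling cells, so that the share describes the genes that passed. *PODXL*, the surface sialomucin podocalyxin, had 46.9 CPM in cycling, 43.7 in between and 159 in not cycling cells. *CCL5*, a T cell chemokine, had 52.3, 38.6 and 176 CPM, and *G0S2*, a lipase inhibitor named for the G0/G1 switch, 79.4, 85.5 and 250. The 10 highest cells held 52.8% of the *CCL5* and 54.8% of the *G0S2* UMIs of not cycling cells, and the median cell had 0.15 and 0 per 10000 UMIs. In Ctrl each of these genes had 3 UMIs or fewer per group, so no ratio to Ctrl is given. The ratio of *PODXL* was past 2-fold under every alternative, but among the cells whose barcodes came first in the file *CCL5* and *G0S2* were at -0.77 and -0.81, short of 2-fold.

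The 5 late-rising genes of highest level over all 7-day cells were under 2-fold. *AREG*, the EGF receptor ligand amphiregulin, had 1149 CPM in cycling and 1379 in not cycling cells. *TFPI2*, a protease inhibitor, had 841 and 918 CPM, and *CXCL1*, a neutrophil chemokine, 360 and 386. *CXCL8*, of the same family, had 386 and 612 CPM, a log2 ratio of -0.67. *FBXO32*, a ubiquitin ligase subunit, had 210 against 372 CPM, a log2 ratio of -0.83. Of the 35 late-rising genes of at least 50 CPM, 9 were at least 2-fold lower, beside 1.01% of all genes at that level. The 2 late-rising genes that were higher in cycling cells were *AXL* and *EFEMP1*, a matrix protein, the latter named after its values were seen. *EFEMP1* had 13.6 CPM in cycling and 6.75 in not cycling cells, a log2 ratio of 1.01 at the 2-fold limit. *CCL2*, a monocyte chemokine, had 128 CPM in cycling, 49.6 in between and 171 in not cycling cells, without a UMI in either Ctrl group. *CD274*, the immune checkpoint ligand PD-L1, had 9.32 against 13.8 CPM. The 14 late genes taken from an earlier look at these data had 3 lower members (*PODXL*, *CCL5* and *G0S2*) and none higher, with a median log2 ratio of -0.56. Their share of 21.4% stood beside 1.30% lower over all genes compared. All 3 are already counted among the lower late-rising genes, and a list taken from these data gives no evidence of its own.

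Epithelial and basement membrane genes had few members past 2-fold. Of 35 epithelial genes 1 (2.86%, against 5.77% over all genes compared) was at least 2-fold higher in cycling cells and none was lower. The median log2 ratio was -0.25, 26 of the 35 had a ratio below 0, and their summed level had a log2 ratio of -0.37. The higher gene was *OVOL2*, an epithelial transcription factor that represses EMT genes, at 35.8 CPM in cycling, 27.4 in between and 15.1 in not cycling cells. *ELF3* and *ESRP1*, an epithelial transcription factor and a splicing factor, had log2 ratios of 0.66 and 0.51, and that of *ELF3* turned to -0.14 when cells were grouped by *MKI67*. On the other side, *JUP*, the junction protein plakoglobin, had 207 against 401 CPM and *CDH3*, P-cadherin, 57.2 against 102. *KRT18* was equal, at 1323 and 1327 CPM. None of 17 basement membrane genes reached 2-fold, though 15 had a ratio below 0 and their summed level had a log2 ratio of -0.60, beside -0.53 for the mesenchymal genes. *LAMB3*, the laminin beta 3 chain, had 383 CPM in cycling, 385 in between and 650 in not cycling cells.

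Of 18 cytokine genes 1 (5.56%) was at least 2-fold higher and 1 (*CCL5*) lower in cycling cells. Of 17 NF-κB genes none was higher and 2 (11.8%) were lower. Over all genes compared 5.77% were higher and 1.30% lower, so the share of higher cytokine genes was near that of all genes. *IL11*, a cytokine induced by TGF-β, had 141 CPM in cycling, 105 in between and 67.5 in not cycling cells, the only one of 18 cytokine genes at least 2-fold higher. Its log2 ratio of 1.07 fell short of 2-fold under some alternatives, to 0.60 among the later barcodes. *IL32*, a proinflammatory cytokine, had 320 against 517, and *CXCL2* 106 against 83.6. Of 17 NF-κB genes *ICAM1*, an adhesion molecule for leukocytes, and *SOD2*, mitochondrial superoxide dismutase, were lower, at 15.2 against 46.5 and 56.6 against 134 CPM. *NFKB1* had 86.7 against 71.6 CPM. Among 14 immediate early genes *FOSL1*, an AP-1 subunit, was alone past 2-fold, at 121 against 56.1 CPM. This share of 7.14% was also near that of all genes. *STAT2*, a transducer of interferon signals, was the only one of 7 interferon genes past 2-fold, at 8.97 against 21.3 CPM. This is 14.3% lower, beside 1.30% over all genes compared. *STAT2* was under 10 CPM in cycling cells and reached the level through the not cycling cells.

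The 10 lowest ratios of all genes included, besides the proteases, histones and *CDKN2B* named above, *TP53INP2*, *CST1*, *SPANXB1*, *FOLR3* and *PLA2G10*. *TP53INP2*, an autophagy regulator, had 6.10 CPM in cycling, 7.11 in between and 34.6 in not cycling cells, and 3.63 against 21.6 in Ctrl, a log2 ratio of -2.51 at 7-day and -2.57 in Ctrl. *CST1*, a secreted cystatin, had 51.3 against 250 CPM at 7-day and 17.3 against 12.3 in Ctrl. *SPANXB1*, of the sperm-associated SPANX family, had 92.3% of its not cycling UMIs in 10 cells. *CST1* and *SPANXB1* have near-identical copies in the genome, so their counts are uncertain.

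Within the same *TOP2A* limits, 7-day was then set against Ctrl. The not cycling cells of these libraries were not alike in other cell cycle genes. Their replication sum had a median of 19.9 in Ctrl and 6.90 at 7-day, and their mitosis sum 41.2 and 20.97. Ratios within not cycling cells therefore do not compare cells of like cell cycle state. Of the 7905 genes, 973 (12.3%) were at least 2-fold higher at 7-day within cycling cells and 1168 (14.8%) within not cycling cells, and 194 (2.45%) and 387 (4.90%) were lower. Of the 27 mesenchymal genes, 26 were at least 2-fold above Ctrl within cycling cells and 26 within not cycling cells, 25 in both. The median log2 ratios were 2.24 and 2.91, counting genes without a Ctrl UMI as above the median. All 7905 genes, these 27 included, were compared because they reached the level at 7-day. In Ctrl 16 of the 53 mesenchymal genes reached it. This choice favours genes above Ctrl, so the counts do not describe the whole list. Among the 27 compared, nearly all were higher than in Ctrl in cycling cells as well. The ratio was smaller in cycling cells for 17 of the 27. The 88 late-rising genes, which the rule chose for being above Ctrl, had medians of 3.50 in both groups, and the ratio was smaller in cycling cells for 44. The 14 late genes from the earlier look had medians of 3.69 in cycling and 3.38 in not cycling cells. Genes without a Ctrl UMI were counted as above the median here too. The ratio was nevertheless smaller in cycling cells for 9 of these 14. This count includes *PODXL*, *CCL5* and *G0S2*, with 3 Ctrl UMIs or fewer per group, so it does not order the groups. These genes are in the late-rising count as well. The 18 cytokine genes had medians of 2.57 and 2.11, the opposite order to the mesenchymal list, with a smaller ratio in cycling cells for 6. *FN1* was above Ctrl by 1.94 (1.81 to 2.08) within cycling and by 2.41 (2.26 to 2.56) within not cycling cells on the log2 scale. *SOX4* was above Ctrl by 2.18 (2.09 to 2.28) and 2.60 (2.51 to 2.70), and *MMP9* by 4.65 and 6.64. *SNAI2* (3.39 and 3.04) and *PMEPA1* (3.90 and 3.71) had the opposite order, with overlapping intervals for both genes. *AXL* was above Ctrl by 5.38 (4.61 to 6.26) within cycling and 3.15 (2.18 to 4.31) within not cycling cells. *LGALS3* was below Ctrl in both, at -1.51 and -1.52.

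**Figure D5:**
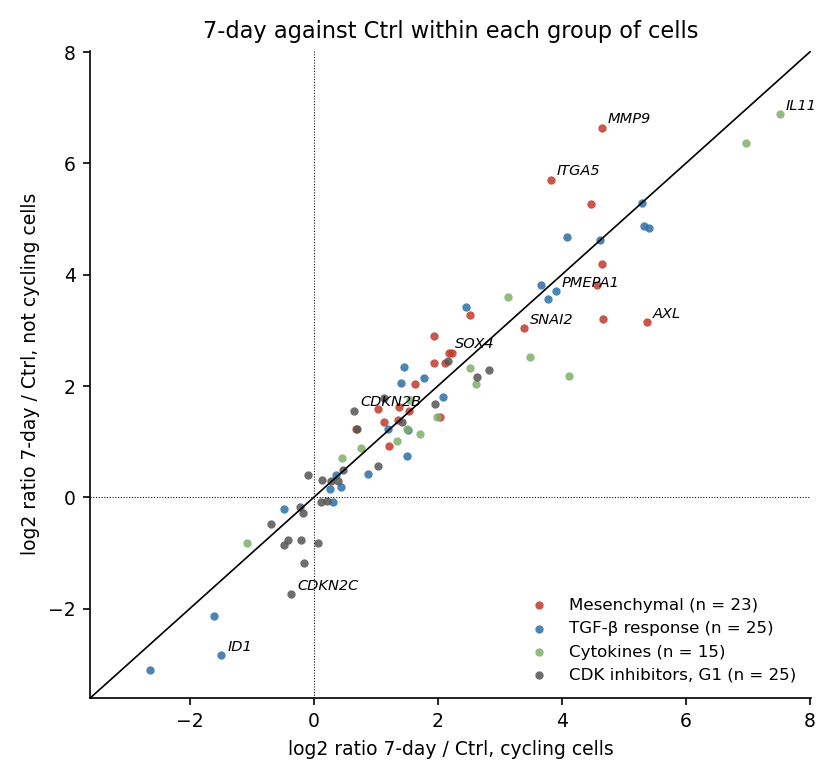
Log2 ratio of 7-day to Ctrl within cycling cells (x axis) and within not cycling cells (y axis) for compared genes of 4 lists with more than 3 UMIs in both Ctrl groups. The line marks equal ratios. *MMP9* (4.65 and 6.64) lies above it and *AXL* (5.38 and 3.15) below it, and the mesenchymal genes lie in the upper right.

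The same limits in the other libraries gave the following values side by side. In Ctrl 200 of 7520 genes (2.66%) were at least 2-fold higher in cycling cells and 37 (0.492%) lower, at 1-day 436 (5.80%) and 44 (0.585%), and at 3-day 413 (5.38%) and 48 (0.625%). Of the 456 genes higher at 7-day, 416 reached the level in Ctrl, and 175 of these passed 2-fold there as well. Of the 103 lower genes only 50 reached the level in Ctrl, where 16 passed 2-fold and 46 had a ratio below 0. At 3-day 73 did, of which 35 passed 2-fold and all 73 had a ratio below 0. The mesenchymal list had a median log2 ratio of -0.24 over 16 genes in Ctrl, -0.28 over 19 at 1-day, -0.37 over 23 at 3-day and -0.62 over 27 at 7-day, over sets of genes that differ. The per-cell mesenchymal sum had medians of 13.6 and 14.6 in cycling and not cycling Ctrl cells, 50.2 and 56.3 at 1-day, 56.4 and 69.1 at 3-day, and 45.9 and 67.7 at 7-day. Replication genes differed less between the groups in Ctrl, where 11 of 58 were at least 2-fold higher with a median of 0.52, against 1.53 at 7-day. With 1 library per time point none of these differences between libraries was tested.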

How the data were processed

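The authors made 10x Genomics 3' (v3) libraries, aligned reads to GRCh38 with Cell Ranger 2.0.1 (per the submitters' processing notes) and deposited raw counts of UMIs per gene and cell. The first 572 of 2484 7-day cells in barcode order were analysed here, with 941 of 3372 Ctrl, 945 of 2601 1-day and 712 of 2253 3-day cells. The rest were not analysed here, and the sums are not full library depths. Cells with more than 200 genes and at most 20% mitochondrial UMIs were retained, which removed 3 7-day cells. Scrublet (scanpy 1.11.5) marked 11 7-day cells (1.93%) as doublets, of which 3 were cycling and 2 not cycling, and these were kept except in one alternative. SCTransform and cell cycle regression, which the study describes, were not applied.

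UMIs were summed per group and scaled to CPM, with exact Poisson intervals, exact conditional intervals for ratios and Clopper-Pearson intervals for shares (scipy 1.17.1, Python 3.11.15). No p-value was computed, because the cells of a library are not replicates. The ratio was tested on simulated counts. The groups, gene lists and rules were chosen with earlier results of these data known. Genes named are those the study names for these cells, the 10 highest and lowest ratios, the 10 highest outside the cell cycle lists, the extremes and most abundant members of each list, all compared members of the TGF-β, mesenchymal, G1 and late lists, and the 10 most abundant late genes. Symbols are those of the files (*CTGF* is now *CCN2*). TMM factors came from edgeR 4.0.16, for scaling only. Some named genes are not reported here.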

Additional observations from a re-analysis of the deposited data

Results flagged for a closer look

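*DTL*, which recognises targets for destruction during replication and is itself an S phase gene, went opposite ways in the 7-day and Ctrl libraries. At 7-day it had 26.0 CPM in cycling and 12.003 in not cycling cells, a log2 ratio of 1.12. In Ctrl it had 10.9 CPM in cycling and 21.8 in not cycling cells, a log2 ratio of -1.005. The difference was not tested, since each time point is 1 library.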

How the results depend on the processing

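No paired analysis was possible because each time point is 1 library. Against 456 higher and 103 lower genes, 9 mesenchymal and 22 late-rising genes past 2-fold and a cycling share of 30.6%, a level of at least 50 CPM gave 131, 29, 5 and 9 (of 35 late-rising genes). With no level beyond 3 UMIs, 1905 genes were higher and 1130 lower, and 334 of 715 late-rising genes passed, 171 lower and 163 higher, against 20 lower and 2 higher of 88. Limits of 3 and 0 gave 167 lower genes and a share of 42.2%. Grouping by *MKI67* gave 5 mesenchymal genes and a share of 7.38%. Scaling by median of ratios moved the median log2 ratio of all genes from 0.09 to -0.02, and 10 mesenchymal genes were then lower, as under TMM. Among 268 named genes, 2594 of 3482 alternative ratios stayed within the counting interval, and 887 moved. Of the 90 named genes past 2-fold, 75 were past it under every alternative run on single genes, and 1, *MMP1*, changed sign, to 1.26 with deep not cycling cells only. The calls lost by the other genes include *TNC* (-0.91) and *PCNA* (0.25) when grouped by *MKI67*, *ITGA5* (-0.95) among the first barcodes, and *SPANXB1* (-0.29) and *FOSL1* (0.90) among the later ones. Of the 178 under 2-fold, 42 changed sign under some alternative. Leaving out not cycling cells with high replication genes, an alternative chosen after seeing the data, kept 187 of 234 cells, and 10 mesenchymal genes were lower. Intervals cover counting error only, and spread between cultures is unknown.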

Other observations

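Genes of protein synthesis, sterol synthesis and antigen presentation were mostly lower in cycling than in not cycling 7-day cells, with few past 2-fold. Of 78 ribosomal protein genes 1 passed 2-fold, and the median log2 ratio was -0.19, with 70 below 0. Of 16 sterol and fatty acid genes none passed 2-fold, and 13 were below 0, with a median of -0.35. *SCD*, the stearoyl-CoA desaturase, had 201 CPM in cycling and 310.2 in not cycling cells. Of 11 HLA class I and peptide loading genes none passed 2-fold, and 9 were below 0, with a median of -0.31. The median was 0.09 over all genes compared and -0.42 over the late-rising genes. *TAP1*, a peptide transporter, had 18.3 against 32.3 CPM, *HLA-C* 319 against 503, and *B2M*, the light chain of HLA class I, 274 against 340.

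Among glycolysis and hypoxia genes, *NDRG1*, induced by hypoxia, had 7.48 against 19.7 CPM and was the only one of 17 past 2-fold. This is 5.88% lower, beside 1.30% over all genes compared. *NDRG1* was under 10 CPM in cycling cells and reached the level through the not cycling cells. *VEGFA*, an angiogenic factor, had 35.5 against 63.6 CPM, whereas the enzyme gene *ENO1* had 470 against 366. *MT2A*, a metallothionein, had 14028 against 18870 CPM.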
